A study of Saccharomyces cerevisiae BY4741 with 22 samples.

Results

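The 3' ends of yeast 18S rRNA were examined at 40 positions of internal transcribed spacer 1 (ITS1), the stretch of the 35S ribosomal precursor that follows 18S rRNA. They are the positions +11 to +50, counted from the last nucleotide of mature 18S rRNA as position 0, which is position 2500 of the 35S reference. The positions were set by place, from the 101 positions within 50 nt of position 0, with earlier results of these data known. Together they held 14035 of the 55744879 ends found within 50 nt in 18 libraries.

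The libraries were 3'-RACE (rapid amplification of cDNA ends) of 18S rRNA from purified 40S subunits of Saccharomyces cerevisiae BY4741, and the labels call them biological replicates. Every strain had its own Pno1 and Dim1, or its own Rps14 and Dim1, under a galactose promoter, which is off in the YPD medium used, and carried replacement copies driven by other promoters. The first group carried TEF::Pno1 with Cyc1::Dim1-E85A (Pno1 below), and the second carried the mutant TEF::Pno1-KKKF with the same Cyc1::Dim1-E85A (Pno1-KKKF below). Each had 8 libraries in 3 protocols. Cells grown at 30 °C gave 3 libraries, all made with the universal linker, and cells grown at 25 °C gave 2 more with it and 3 made with a linker that holds a unique molecular identifier (UMI). The third group carried TEF::Rps14 with Cyc1::Dim1 (Rps14 + Dim1 below) and had 2 libraries, at 25 °C with the UMI linker. The Dim1 substitution was therefore shared by both Pno1 groups, and Rps14 + Dim1 differed from them in the depleted protein, the replacement and the form of Dim1 at once. Universal-linker cDNA was purified on gels and UMI-linker cDNA on beads.

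In yeast, 18S rRNA is made from the 35S precursor by cuts in ITS1. A cut at site A2 leaves 20S pre-rRNA, which keeps the first part of ITS1 as a tail, and the endonuclease Nob1 then removes this tail at site D, the 3' end of mature 18S rRNA. Pno1, also known as Dim2, is an RNA-binding assembly factor that sits at this 3' end, Dim1 is the methyltransferase that modifies adenosines near it, and Rps14 is a ribosomal protein of the neighbouring platform. Ends at +11 to +50 belong to molecules that extend past site D but stop short of site A2.

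A 3' end was read from the deposited depth as a lasting drop, meaning a fall in the number of reads that is not made up again further along ITS1. Values are ends per 1000000 of all ends within 50 nt of position 0 (EPM), and those ends totalled 2615354 to 4373681 per library. The value is a share, so more extended molecules and fewer mature ones cannot be told apart.

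The protocols did not see the same stretch. Reads of the 10 universal-linker libraries began at -40 and none went past +36, with the last covered position between +30 and +36. Reads of the 8 UMI libraries began at -61 and passed +50 in every library, with the last covered position between +176 and +303. Positions +37 to +50 were thus visible only with the UMI linker, and there they held 44 ends in all: 26 in the 3 Pno1 libraries, 17 in the 3 Pno1-KKKF libraries and 1 in the 2 Rps14 + Dim1 libraries. Of the 40 positions, 36 held at least 1 end in some library. The 4 without any were +37, +42, +44 and +50.

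Ends were concentrated at few positions. Over all libraries position +25 held 2907 ends, +26 held 1382, +13 held 1337, +19 held 1164 and +12 held 1098, and these 5 made up 56.2% of the ends at the 40 positions. The profile had 3 crests, at +11 to +13, at +18 to +20 and at +25 to +27, with few ends from +28 on. Position +25 was the most frequent in Pno1 at 30 °C, in Pno1-KKKF at 30 °C and in both strains with the UMI linker. In the 25 °C universal-linker libraries +13 led in Pno1 and +12 in Pno1-KKKF, and in Rps14 + Dim1 +13 led.

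**Figure D1:**
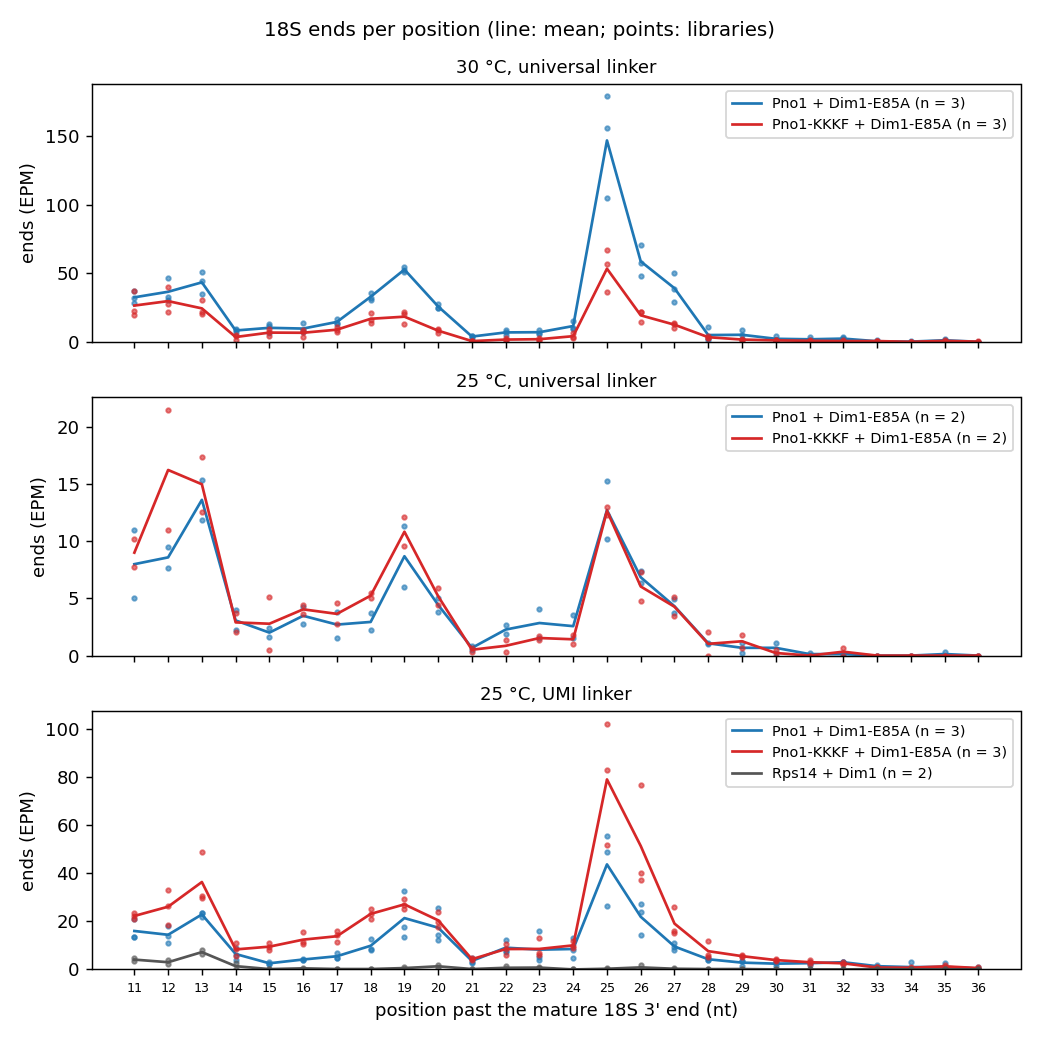
Ends in EPM (vertical axes, each with its own scale) at each position from +11 to +36 (horizontal axis), with 1 panel per protocol; lines are group means and points are libraries. Crests lie at +11 to +13, +18 to +20 and +25 to +27 in the strains with Dim1-E85A, while the line of Rps14 + Dim1 stays below 10 EPM throughout.

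Position +25 gave 156.3, 104.9 and 179.3 EPM in the 3 Pno1 libraries at 30 °C, and 56.7, 36.5 and 66.8 in the 3 Pno1-KKKF libraries. With the universal linker at 25 °C it gave 10.2 and 15.3 in Pno1 and 12.3 and 13.03 in Pno1-KKKF. With the UMI linker it gave 48.9, 26.5 and 55.5 in Pno1, 51.8, 102.2 and 82.9 in Pno1-KKKF, and 0 and 0.568 in Rps14 + Dim1. Pno1 was above Pno1-KKKF without overlap at 30 °C, the strains overlapped in both 25 °C protocols, and Rps14 + Dim1 lay below all other libraries.

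The shape of the profile varied less than its height. Across the 26 positions from +11 to +36, Spearman's rho between the 6 group means with Dim1-E85A lay between 0.869 and 0.986, and between these and Rps14 + Dim1 it lay between 0.703 and 0.830. These values describe positions that share libraries and sequence, and positions are not replicates. The share of the ends at +11 to +50 that fell at +25 to +27 at 30 °C was 43.6% ± 5.11 for Pno1 (SD, n = 3) and 34.0% ± 6.87 for Pno1-KKKF (SD, n = 3). It was 25.8% ± 3.51 and 22.004% ± 3.01 at 25 °C with the universal linker (SD, n = 2 each), and 30.5% ± 7.48 and 36.007% ± 5.74 with the UMI linker (SD, n = 3 each). In Rps14 + Dim1 it was 6.46% ± 0.295 (SD, n = 2), below every other library.

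Summed over +11 to +50, Pno1 at 30 °C had 630.0, 459.0 and 583.5 EPM, and Pno1-KKKF had 302.3, 206.6 and 243.5. At 25 °C with the universal linker Pno1 had 92.0 and 93.4, and Pno1-KKKF 111.7 and 98.5. With the UMI linker Pno1 had 305.0, 193.3 and 240.5, and Pno1-KKKF 350.9, 499.5 and 372.6. The strains did not overlap in any of the 3 protocols, but their order was opposite at 30 °C and at 25 °C. The raw ends behind these sums numbered 544 to 1794 per library at 30 °C, 327 to 431 at 25 °C with the universal linker and 670 to 1359 with the UMI linker.

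**Figure D2:**
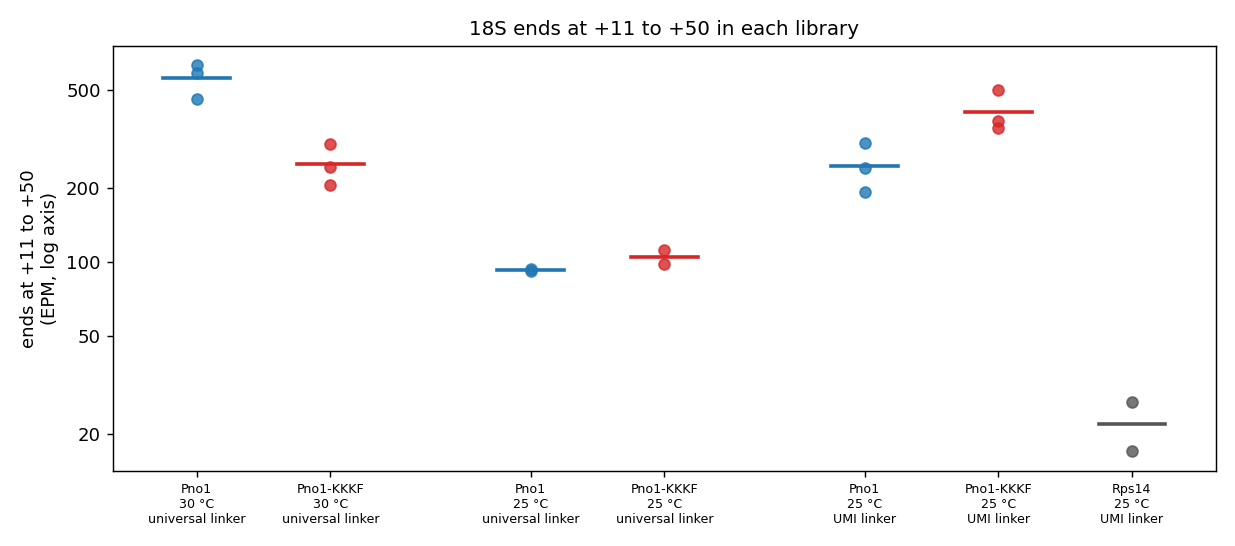
Ends at +11 to +50 in EPM (vertical log axis) for each library (points) with group means (bars), by strain and protocol. Pno1-KKKF lies below Pno1 at 30 °C and above it with the UMI linker, and the 2 Rps14 + Dim1 libraries, at 27.2 and 17.1, lie below all others.

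The design asks whether Pno1-KKKF, described as bypassing quality control of ribosome assembly, changes where 18S rRNA ends. At 30 °C, ends at +11 to +50 were rarer in Pno1-KKKF by a log2 difference of -1.16 (SE 0.21, n = 3 against 3), or 2.23-fold. The window +21 to +30 differed more, at 2.89-fold lower, than +11 to +20 at 1.81-fold. Of the 40 positions 16 had enough ends to be tested, and 10 fell while none rose, against a background of 24.4% of 41 tested positions called over the whole window. The positions called there were all among these 10. The median log2 difference of the 16 was -1.35, beside -0.13 over all tested positions.

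The positions that fell at 30 °C were +14, +18, +19, +20 and +22 to +27. Position +20 gave 27.7, 24.9 and 24.5 EPM in Pno1 and 9.09, 6.46 and 8.72 in Pno1-KKKF, a log2 difference of -1.66 (SE 0.30, edgeR adjusted p = 0.00368). Position +19 gave 50.9, 52.5 and 54.7 EPM in Pno1 and 20.01, 12.9 and 22.002 in Pno1-KKKF, a log2 difference of -1.52 (SE 0.32, edgeR adjusted p = 0.00375). Position +26 gave 57.6, 47.9 and 70.4 against 21.5, 14.4 and 22.002, a log2 difference of -1.60 (SE 0.33, edgeR adjusted p = 0.00375). None of these 3 positions overlapped between the strains. The largest of the 10 differences was at +22, with -2.05 (SE 0.41, edgeR adjusted p = 0.00368), where the libraries held 14, 22 and 19 raw ends in Pno1 and 7, 3 and 3 in Pno1-KKKF. Positions +22 and +23 held fewer than 10 ends in every Pno1-KKKF library. In Pno1-KKKF, +14 held 13, 11 and 4 ends and +24 held 17, 7 and 9. Positions +14, +22, +23 and +24 therefore had enough ends to be tested only through Pno1, which favours a fall. Position +25 had a log2 difference of -1.46 (SE 0.39, edgeR adjusted p = 0.0155), and the other 5 called lay between -0.97 at +18 and -1.87 at +23. Position +13 gave 50.6, 35.1 and 44.4 EPM in Pno1 and 30.6, 22.03 and 20.5 in Pno1-KKKF; these did not overlap, but the log2 difference of -0.83 (SE 0.32, edgeR adjusted p = 0.0859) did not pass. The nearest positions to mature 18S rRNA did not pass: +11 had -0.29 (SE 0.33) and +12 -0.30 (SE 0.34). The count rested on single libraries: 4 positions were called without Pno1 replicate 3 and 6 without Pno1-KKKF replicate 2, all lower.

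With the UMI linker at 25 °C the order was the other way. Ends at +11 to +50 were more frequent in Pno1-KKKF by a log2 difference of 0.73 (SE 0.25, n = 3 against 3), or 1.66-fold. Of 19 positions tested 6 rose and none fell, against 13.3% of 45 tested positions called. They were +15 to +18, +26 and +27. The median log2 difference of the 19 was 0.83, beside 0.33 over all tested positions.

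Position +15 gave 2.27, 3.17 and 2.22 EPM in Pno1 and 8.10, 11.03 and 9.29 in Pno1-KKKF, a log2 difference of 1.86 (SE 0.35, edgeR adjusted p = 0.00580). Its raw ends in Pno1 numbered 7, 11 and 7. It had enough ends to be tested only through Pno1-KKKF, which favours a rise. Position +18 gave 12.6, 8.65 and 8.25 against 25.3, 20.9 and 23.0, a log2 difference of 1.23 (SE 0.24, edgeR adjusted p = 0.00580). Position +26 gave 24.0, 14.4 and 27.3 against 37.3, 76.4 and 40.2, a log2 difference of 1.23 (SE 0.35, edgeR adjusted p = 0.0394). None of the 3 positions overlapped between the strains. The other 3 called had log2 differences of 1.57 (SE 0.29) at +16, 1.33 (SE 0.28) at +17 and 1.00 (SE 0.28) at +27. The most frequent position, +25, had 0.86 (SE 0.35, edgeR adjusted p = 0.162) and did not pass. Between +19 and +24 no position was called. The 6 calls depended on the scaling: with TMM factors, under which position 0 itself moved by -0.37, edgeR called 0 of them (3 at an unadjusted p under 0.05), and with default size factors DESeq2 likewise called 0 (5 at an unadjusted p under 0.05). Without Pno1 replicate 7 or without Pno1-KKKF replicate 7, 4 positions were called.

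With the universal linker at 25 °C, the sum over +11 to +50 was 1.13-fold higher in Pno1-KKKF, a log2 difference of 0.18 (SE 0.09, n = 2 against 2). EdgeR called 0 of 12 tested positions (0 at an unadjusted p under 0.05), and neither DESeq2 fit called any. Of 38 positions tested over the whole window 5.26% were called, none of them at +11 or beyond. The 3 positions with the smallest p were +18, with a log2 difference of 0.82 (SE 0.54, edgeR adjusted p = 0.646), +12, with 0.91 (SE 0.71, edgeR adjusted p = 0.760), and +17, with 0.44 (SE 0.52, edgeR adjusted p = 0.940). The windows pointed in different directions: +11 to +20 was 1.29-fold higher in Pno1-KKKF and +21 to +30 was 1.17-fold lower.

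Pooled over the 3 protocols, with protocol as a term, the sum differed by -0.08 on the log2 scale (SE 0.11, n = 8 against 8) with opposite signs at 30 °C and at 25 °C. EdgeR called 0 of 21 positions (1 at an unadjusted p under 0.05), against 0% of 47 tested, while DESeq2 called 1, position +22, when its default size factors were used. The 3 positions with the smallest p were +22, at -0.97 (SE 0.36, edgeR adjusted p = 0.312), +23, at -0.79 (SE 0.40, edgeR adjusted p = 0.356), and +24, at -0.62 (SE 0.34, edgeR adjusted p = 0.443).

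**Figure D3:**
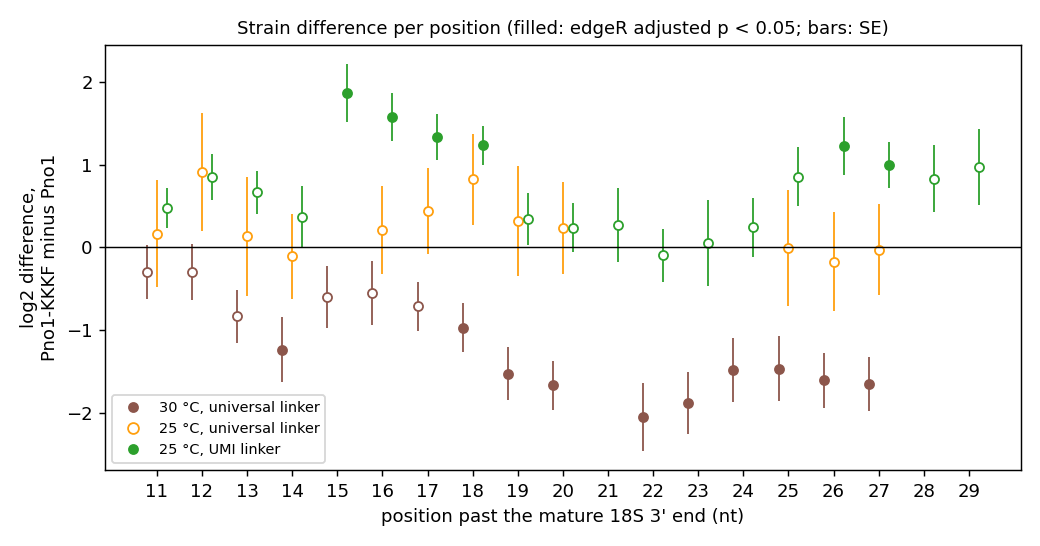
Log2 difference in ends, Pno1-KKKF minus Pno1 (vertical axis, bars are SE), at each tested position (horizontal axis) in the 3 protocols; filled points passed edgeR's adjusted p of 0.05. The 10 filled points at 30 °C lie below 0, the 6 filled points with the UMI linker lie above 0, and the universal linker at 25 °C has none.

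The strain differences themselves differed between the 30 °C universal-linker and the 25 °C UMI libraries. The sum over +11 to +50 gave a difference of log2 differences of 1.89 (SE 0.32). EdgeR called 14 of 21 positions, all with a higher strain difference in the UMI libraries, against 29.8% of 47 tested positions. With TMM factors 9 were called, and with DESeq2's default size factors 3. The 14 were +13, +15 to +22, +24 to +27 and +29. Of these, +21, +22 and +29 held fewer than 10 ends in every Pno1-KKKF library at 30 °C. The smallest p belonged to +27, at 2.64 (SE 0.43), +18, at 2.195 (SE 0.37), and +26, at 2.83 (SE 0.49), each with an edgeR adjusted p of 0.000488. Of the 10 positions that fell at 30 °C and the 6 that rose with the UMI linker, +18, +26 and +27 were in both lists, 30% of the first and 50% of the second. Temperature, linker, clean-up and the reach of the reads all changed between these protocols and cannot be told apart in this contrast.

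Within the universal linker, where only the labelled temperature changed, 2 of 21 positions were called, +18 at 1.78 (SE 0.45, edgeR adjusted p = 0.0399) and +20 at 1.90 (SE 0.50, edgeR adjusted p = 0.0399), both with a higher strain difference at 25 °C, against 4.26% of 47 tested positions. This contrast was added after the data had been seen. Its calls fell to 0 with TMM factors, without the filter on low counts, with DESeq2's default size factors, with all 18 libraries in the fit, and without most single libraries, including each Pno1 library at 30 °C and each Pno1-KKKF library at 25 °C with the universal linker.

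Culture at 25 °C went with fewer ends at +11 to +50 than culture at 30 °C within the universal linker and within strain. The sum differed by -1.91 on the log2 scale (SE 0.11, 4 against 6 libraries), or 3.75-fold, and the libraries did not overlap. The fall was 3.01-fold at +11 to +20 and 5.13-fold at +21 to +30. EdgeR called 14 of 16 positions, all lower, against 46.3% of 41 tested positions. Of those called, +15, +17, +22 and +24 had enough ends to be tested only through the 30 °C libraries, which favours a fall. The median log2 difference of the 16 was -1.71, beside -1.10 over all tested positions, all 19 calls of which were lower.

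Position +25 fell most among those called, with a log2 difference of -2.77 (SE 0.42, edgeR adjusted p = 0.000572), from 36.5 to 179.3 EPM at 30 °C to 10.2 to 15.3 at 25 °C. On the same scale +18 fell with -2.51 (SE 0.41) and +26 with -2.36 (SE 0.39), both at an edgeR adjusted p of 0.000572. Nearer to site D, +12 had a log2 difference of -1.45 (SE 0.38, edgeR adjusted p = 0.00747). The 2 tested positions that did not pass were +14, at -0.87 (SE 0.39, edgeR adjusted p = 0.0759), and +23, at -0.87 (SE 0.38, edgeR adjusted p = 0.0716). With TMM factors or with DESeq2's default size factors 8 positions were called. The 2 temperatures had separate libraries, numbered 1 to 3 and 4 to 5, so any other difference in how these were made cannot be told apart from temperature.

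At 25 °C the UMI linker gave more ends at +11 to +50 than the universal linker within strain, by a log2 difference of 1.66 (SE 0.13, 6 against 4 libraries), or 3.16-fold, without overlap. The rise was 2.34-fold at +11 to +20 and 4.51-fold at +21 to +30. EdgeR called 18 of 19 positions, all higher, against 86.7% of 45 tested positions, of which 21 were higher and 18 lower. The exception was +15, with 1.17 (SE 0.53, edgeR adjusted p = 0.0552). Position +21 rose by 2.60 (SE 0.38), +20 by 1.96 (SE 0.28) and +18 by 1.94 (SE 0.25) on the log2 scale, each with an edgeR adjusted p of 0.000141. Positions +21, +28 and +29 held fewer than 10 ends in every 25 °C universal-linker library. Positions +14, +17 and +22 to +24 held 10 ends or more in fewer than 3 of these libraries. All of these positions had enough ends to be tested only through the UMI libraries, which favours a rise. The linker, the clean-up and the start of the reads changed together and cannot be told apart.

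Rps14 + Dim1 had few ends at +11 to +50. The sums were 27.2 and 17.1 EPM, from 80 and 60 raw ends, against 193.3 to 305.0 in the UMI libraries of Pno1, 11.2-fold lower, with a log2 difference of -3.48 (SE 0.38, n = 2 against 3). Against Pno1-KKKF the sum was 18.6-fold lower, with a log2 difference of -4.22 (SE 0.37, n = 2 against 3). EdgeR called 18 of 19 positions against Pno1, all lower, beside 56.5% of 46 tested positions. Against Pno1-KKKF it called 20 of 20, all lower, beside 66% of 47 tested positions. Only +11, with 14 and 12 ends, and +13, with 24 and 22, had enough ends in Rps14 + Dim1 itself to be tested. The other positions from +11 to +50 were tested only because of the Pno1 or Pno1-KKKF libraries, which favours a fall. The counts of lower positions are therefore largely set by the filter. The sums used no such filter. Both comparisons use the same 2 Rps14 + Dim1 libraries.

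The shortfall was larger at +21 to +30 than nearer to site D. At +11 to +20 Rps14 + Dim1 was 6.53-fold below Pno1 and 10.9-fold below Pno1-KKKF, and at +21 to +30 it was 33.0-fold and 57.6-fold below. The share of its ends at +11 to +20 was 83.8% ± 1.77 (SD, n = 2), against 49.4% ± 7.25 for Pno1 and 49.5% ± 6.07 for Pno1-KKKF (SD, n = 3 each), and no library overlapped.

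By position, +13 held 24 and 22 ends in the Rps14 + Dim1 libraries, or 8.15 and 6.25 EPM, against 21.9 to 23.4 in Pno1 and 29.5 to 48.9 in Pno1-KKKF. Its ratio of pooled ends was 3.21 (exact 95% counting interval 2.33 to 4.52) for Pno1 and 5.05 (3.69 to 7.03) for Pno1-KKKF. At +19, with 0 and 4 ends in Rps14 + Dim1, the ratio was 34.0 (13.1 to 125.8) for Pno1 and 43.8 (16.9 to 161.9) for Pno1-KKKF. At +25, with 0 and 2 ends, it was 139.1 (38.3 to 1152.7) and 251.8 (69.4 to 2083.1). Position +24 had no end in either Rps14 + Dim1 library and was at least 18.0-fold higher in Pno1 and 21.5-fold higher in Pno1-KKKF, taking a floor of 3 ends over the group. The intervals cover counting error only, since PCR copies of a molecule are not independent. The position that did not pass against Pno1 was +14, at -2.30 (SE 1.01, edgeR adjusted p = 0.109), with 8 and 0 ends in the Rps14 + Dim1 libraries.

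In the UMI libraries the reads that went past +50 could be set beside those that ended before it. Of the reads that reached +11, the share that ended at +11 to +50 was 70.8%, 71.7% and 71.6% in Pno1. It was 84.6%, 80.3% and 81.9% in Pno1-KKKF and 54.1% and 45.8% in Rps14 + Dim1. The 3 strains did not overlap. The widest 95% Wilson interval was that of the second Rps14 + Dim1 library, 37.5% to 54.3%, from 131 reads. Reads past +50 amounted to 76.4 to 125.6 EPM in Pno1 and 63.8 to 122.4 in Pno1-KKKF, which overlapped, and to 20.2 to 23.1 in Rps14 + Dim1. The depth fell most steeply between +25 and +28 in the strains with Dim1-E85A, and was nearly level from +37 to +50 in all 8 libraries.

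**Figure D4:**
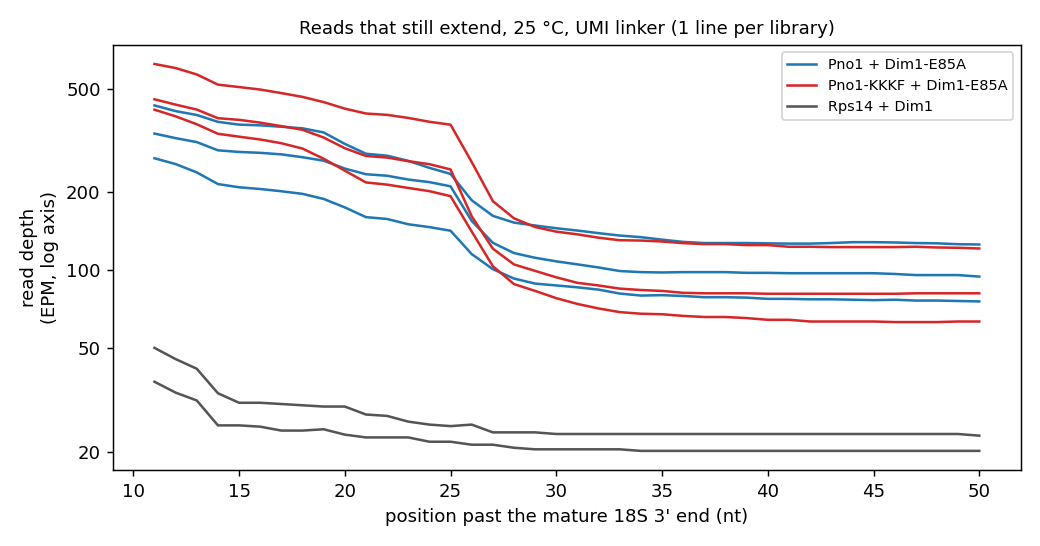
Read depth per 1000000 18S ends, in EPM (vertical log axis), from +11 to +50 (horizontal axis) in the 8 UMI libraries, 1 line each. The lines of Pno1 and Pno1-KKKF drop at +25 to +28 and run level between 63.5 and 125.6 EPM at the right edge, while both lines of Rps14 + Dim1 have already levelled near 20 EPM.

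Beyond +30 ends were few. At +31 to +40 the UMI libraries gave 10.1 ± 3.34 EPM for Pno1 and 10.4 ± 3.61 for Pno1-KKKF (SD, n = 3 each), a log2 difference of 0.04 (SE 0.38) with overlap, while the 2 Rps14 + Dim1 libraries held 1 end there. At 30 °C the same window gave 5.71 ± 3.05 EPM for Pno1 and 2.49 ± 0.528 for Pno1-KKKF (SD, n = 3 each), with overlap and with reads that reached +36 at most. At +41 to +50 the UMI libraries held 8, 4 and 7 ends in Pno1, 2, 2 and 0 in Pno1-KKKF and 1 and 0 in Rps14 + Dim1. Pno1 was the higher there, unlike at +11 to +30, but no position beyond +32 had enough ends to be tested.

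At the inner edge of the stretch the neighbouring position +10 held more ends than +11 in every group. At 30 °C Pno1 libraries had 313 to 419 ends at +10 and 75 to 106 at +11, and Pno1-KKKF libraries 221 to 515 and 52 to 101. The UMI libraries had 131 to 187 and 42 to 65 in Pno1, 129 to 173 and 60 to 73 in Pno1-KKKF, and 61 to 68 and 12 to 14 in Rps14 + Dim1. At the outer edge +50 had no end in any library, and +51 had 0 to 12 ends in the UMI libraries.

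Ends at +1 to +10, between the stretch and site D, overlapped between Pno1 and Pno1-KKKF in all 3 protocols. At 30 °C they were 2007 ± 1369 EPM for Pno1 and 2096 ± 434.2 for Pno1-KKKF (SD, n = 3 each), and with the UMI linker 439.4 ± 36.3 and 451.3 ± 50.01 (SD, n = 3 each). Rps14 + Dim1 had 310.7 ± 14.8 EPM there (SD, n = 2), below every UMI library of Pno1 and Pno1-KKKF, with log2 differences of -0.50 (SE 0.08) and -0.53 (SE 0.11). Pno1 replicate 1 at 30 °C stood apart there, with 3587 EPM, beside 630.0 at +11 to +50, the highest of its group. The log2 difference between the strains at +1 to +10 was 0.24 (SE 0.55) at 30 °C and 0.04 (SE 0.12) with the UMI linker, beside -1.16 and 0.73 at +11 to +50; the difference between the stretches was not tested. The share of all ends at +1 to +50 that lay at +11 or beyond ranged from 14.9% to 31.4% in Pno1 and from 8.74% to 12.96% in Pno1-KKKF at 30 °C. At 25 °C with the universal linker it was 7.17% and 13.1% in Pno1 and 6.33% and 14.7% in Pno1-KKKF, which overlapped. It ranged from 29.0% to 43.2% and from 43.2% to 51.5% with the UMI linker, and from 5.04% to 8.30% in Rps14 + Dim1.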

How the data were processed

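The deposited values are whole-number counts, namely read depth along the 35S precursor position by position, per the file headers. Tools named in the submitters' processing notes are bedtools 2.17.0, Bowtie2 2.2.9, cutadapt 3.5, FastQC 0.11.4, SAMtools 1.1.0, Trim Galore 0.6.1 and UMI-tools 1.1.2. The sources used here give neither settings nor whether duplicates were removed by UMI.

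Depth was turned into ends as lasting drops (Python 3.11.15), looking up to position 2861, the last of ITS1. Columns were matched to samples by title. The 4 libraries of 25S rRNA had no depth at +11 to +50 and were not used. Ends per position within 50 nt of position 0 were tested with the quasi-likelihood F test of edgeR 4.0.16 in R 4.3.3, the library size being the total of these ends. A position was tested where 3 or more libraries (2 or more where a group had 2) held 10 ends or more. P-values were adjusted by Benjamini-Hochberg over all tested positions, and called means under 0.05. SE were derived from the F statistic. Each fit used only the groups compared, except the differences of strain differences between protocols, which used all 16 libraries of Pno1 and Pno1-KKKF. This holds also for the one within the universal linker. Of positions changed 4-fold in data simulated for the 30 °C comparison over 41 positions, the test recovered 97%, and for the UMI comparison over 45 positions 96.5%. False calls made up 5.8% and 3% of its calls. The simulated spread between libraries was fixed, not taken from these libraries, and smaller changes were not simulated. Recovery under the real spread was not tested. DESeq2 1.42.0 was an alternative.

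Sums over the 40 positions carry no p. Their log2 differences (0.5 added to each count) have SE from the spread between libraries. No 2 replicates agreed within sampling noise. Positions named are +10, +11, +50, +51, the 5 most frequent per group, and up to 10 called per direction with the smallest p (the 3 smallest where none was called). Any other position was named with its values in view. The members and lists were chosen with earlier results of these data known.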

Additional observations from a re-analysis of the deposited data

Results flagged for a closer look

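The difference between Pno1-KKKF and Pno1 was itself different in the 25 °C UMI libraries and the 30 °C universal-linker libraries at 14 positions, by the contrast of the strain differences in edgeR. On the log2 scale, UMI minus 30 °C, it was 1.497 at +13, 2.47 at +15, 2.12 at +16, 2.04 at +17 and 2.195 at +18. It was 1.87 at +19, 1.90 at +20, 3.10 at +21, 1.95 at +22 and 1.72 at +24. It was 2.32 at +25, 2.83 at +26, 2.64 at +27 and 2.60 at +29. Pno1-KKKF at 30 °C held only 1, 2 and 1 raw ends at +21, 7, 3 and 3 at +22, and 4, 4 and 5 at +29. Positions +21 and +29 had too few ends to be tested in the 30 °C comparison itself. All 14 had the same sign, and 9 positions were called with TMM factors and 3 with DESeq2's default size factors. Position 0 moved by less than 0.01 in this contrast with total ends as library size, by -0.27 with TMM factors and by -0.95 with DESeq2's default size factors.

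Within the universal linker, in a contrast chosen after seeing the data, the strain difference at 25 °C minus that at 30 °C was 1.78 at +18 and 1.90 at +20. In both contrasts the part of temperature, linker and library preparation was not tested. No library stood apart from the others of its group at the sums over +11 to +50 or its 4 windows, in the 2 groups of 8 libraries.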

How the results depend on the processing

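The 9 sums over +11 to +50 kept their direction under the other rule for ends (negative drops set to 0), the window +11 to +30 or +11 to +36 (the latter chosen after seeing the data), and ends at position 0 as denominator, and moved by less than the spread between libraries. With single libraries left out, the log2 differences ranged from -1.30 to -1.03 (strains, 30 °C), 0.09 to 0.27 (strains, 25 °C universal), 0.57 to 0.90 (strains, UMI), -0.14 to -0.03 (strains, all protocols), 1.73 to 2.06 (difference of strain differences), -3.82 to -3.15 and -4.55 to -3.88 (Rps14 + Dim1 against Pno1 and Pno1-KKKF), -1.97 to -1.83 (temperature) and 1.58 to 1.74 (linker).

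Counts of called positions moved with the scaling; the cause was not tested beyond the shift of position 0, which TMM and DESeq2's default factors moved by 0.66 and 0.90 for temperature, by -0.27 and -0.95 for the difference of strain differences and by -0.70 and -0.41 for temperature by strain. For the strains in UMI libraries 6 calls became 0 with TMM, 0 with DESeq2's default factors and 3 with all 18 libraries in the fit. The 14 calls on the difference of strain differences became 9 with TMM and 3 with DESeq2's default factors. The 14 for temperature became 8 with each. Over all protocols DESeq2's default factors called 1 in place of 0. The 2 calls on temperature by strain within the universal linker became 0 with TMM, no filter, DESeq2's default factors or all 18 libraries. Leaving out single libraries gave 4 to 10 calls at 30 °C, 4 to 8 in UMI libraries, 0 to 0 over all protocols and at 25 °C with the universal linker, 12 to 16 for the difference of strain differences, 12 to 18 and 18 to 20 for Rps14 + Dim1, 11 to 16 for temperature, 16 to 19 for linker and 0 to 3 for temperature by strain. Position +17 at 25 °C with the universal linker, not called, changed sign with TMM (-0.0433) and without Pno1 replicate 5 (-0.0599), in a range of -0.0599 to 0.750 over single libraries left out.

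Replicate numbers were not used as pairs in the main fits, and the sample titles do not say whether libraries were paired. Same-numbered libraries correlated between -0.30 and 0.25, and only some correlated best with their own number. At 30 °C the sums over +11 to +50 ran in the order of replicates 1, 3 and 2, from highest to lowest, in each strain. In the 25 °C protocols the order differed between strains. At 30 °C a replicate block lowered the edgeR adjusted p of +20 from 0.00368 to 3.45e-08. With a replicate block, edgeR called 12 positions at 30 °C, 5 in UMI libraries and 0 in the other strain comparisons; +26 and +27 in UMI libraries were then no longer called (adjusted p = 0.0988 and 0.0936). Depth limits +28 to +50, where few positions could be tested: 19 of the 40 entered no test.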
